A study of Odorrana tormota with 4 samples.

Results

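Glutamate receptor subunits and vesicular glutamate transporters were followed through the brain transcriptome of the concave-eared frog *O. tormota*. A unigene, an assembled transcript sequence, was a member if the gene symbol of its Swiss-Prot match began with GRIA, GRIK, GRID, GRM or GRIN and a digit, or was SLC17A6, SLC17A7 or SLC17A8. Unigenes that best matched a chicken or turkey protein (*Gallus* or *Meleagris*) were to be dropped, and 0 member unigenes had such a match. This gave 39 unigenes of 197684, which carried 30 gene symbols of 17058. The symbols covered 26 receptor subunits, 3 transporters and 1 scaffold gene that the rule takes in by its name and that enters no class sum below. The brains came from wild-caught adult frogs of both sexes, with no treatment, and RNA of several frogs was mixed before sequencing. F1 and F2 are female pools of 2 frogs each, and M1 and M2 are male pools of 4 frogs each. The sexes therefore differ in the number of frogs per pool as well as in sex, and these cannot be told apart. Values are FPKM, fragments scaled to the length of the unigene and to the fragments of the library, as deposited, and were summed over the unigenes of each gene.

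Glutamate is the main excitatory transmitter of the vertebrate brain. Vesicular transporters of the SLC17 family load it into synaptic vesicles. AMPA, kainate and NMDA receptors are ion channels assembled from several subunits that open on binding it, and delta receptors have the same build but serve mainly as synaptic adhesion and organizing proteins. Metabotropic receptors are coupled to G proteins, group I to phospholipase C and groups II and III to the inhibition of adenylyl cyclase. In the auditory pathway, as elsewhere, fast excitation is carried by AMPA receptors, while NMDA receptors pass calcium and govern synaptic plasticity.

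FPKM sums, which depend on the scaling to the library, were 669260 to 717478 over the pools. F1 and F2 had 136730 and 134587 unigenes above 0, against 151756 and 148985 in M1 and M2. The paper lists nearly equal numbers of clean reads for these pools. Read counts per unigene were not used here, so the exact count under each value is unknown. Neuron markers were abundant in each pool, as in SNAP25 at 719.5 to 958 FPKM and GAP43 at 237 to 282, whereas the defining markers TUBB3 and ELAVL4 were under 2 FPKM, and 11 of the 12 listed neuron symbols were in the table. Unigenes that best matched *Gallus* or *Meleagris* had a value above 0 in 2.75% and 2.84% of cases for F1 and F2, but in 89.1% and 93.8% for M1 and M2. F2 held far more pituitary signal than F1 (7 of 10 listed symbols in the table, summed FPKM of 6683 and 84.7, with 1610 in M1 and 1087 in M2), and most of the muscle signal. In whole-brain RNA, fewer cells of a type and less RNA per cell cannot be told apart.

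The member unigenes were long. They were 376 to 13153 bp long with a median of 4378 bp, against 485 bp for all unigenes, and 30 of the 39 had at least 2500 bp. Their best match in the NR protein database was an amphibian for 32 and a bird or turtle for 7. Of the 30 genes, 21 rested on 1 unigene and 9 on 2. The 2 pieces of GRM4, from the same assembly component, ran in parallel through the pools. The shorter had 0.531, 0.499, 0.502 and 0.485 times the FPKM of the longer one in F1, F2, M1 and M2. Summed FPKM therefore count GRM4 in 2 pieces, so levels of different genes were also read as FPKM of the longest unigene.

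Mean summed FPKM ranged from 0.224 to 135 over the family. GRIA1 had the highest mean over the 4 pools with 135 FPKM, and was followed by SLC17A7 with 122, GRID1 with 64.2, GRIN1 with 51.5 and GRM7 with 35.6. GRIA1 rested on 2 unigenes of 7495 and 3860 bp, and on its longest unigene alone its mean was 60.8 FPKM, below SLC17A7 and GRID1. For GRM7 the longest unigene was the rare one, with a mean of 0.773 FPKM, and nearly all signal came from a second unigene of 4010 bp. At the other end, GRIN3B, SLC17A8, GRIA2 and GRM6 had means of 0.827, 0.808, 0.271 and 0.224 FPKM. These 4 did not reach 1 FPKM in 2 pools and were left out of the test, so that 26 of the 30 genes were tested.

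**Figure D1:**
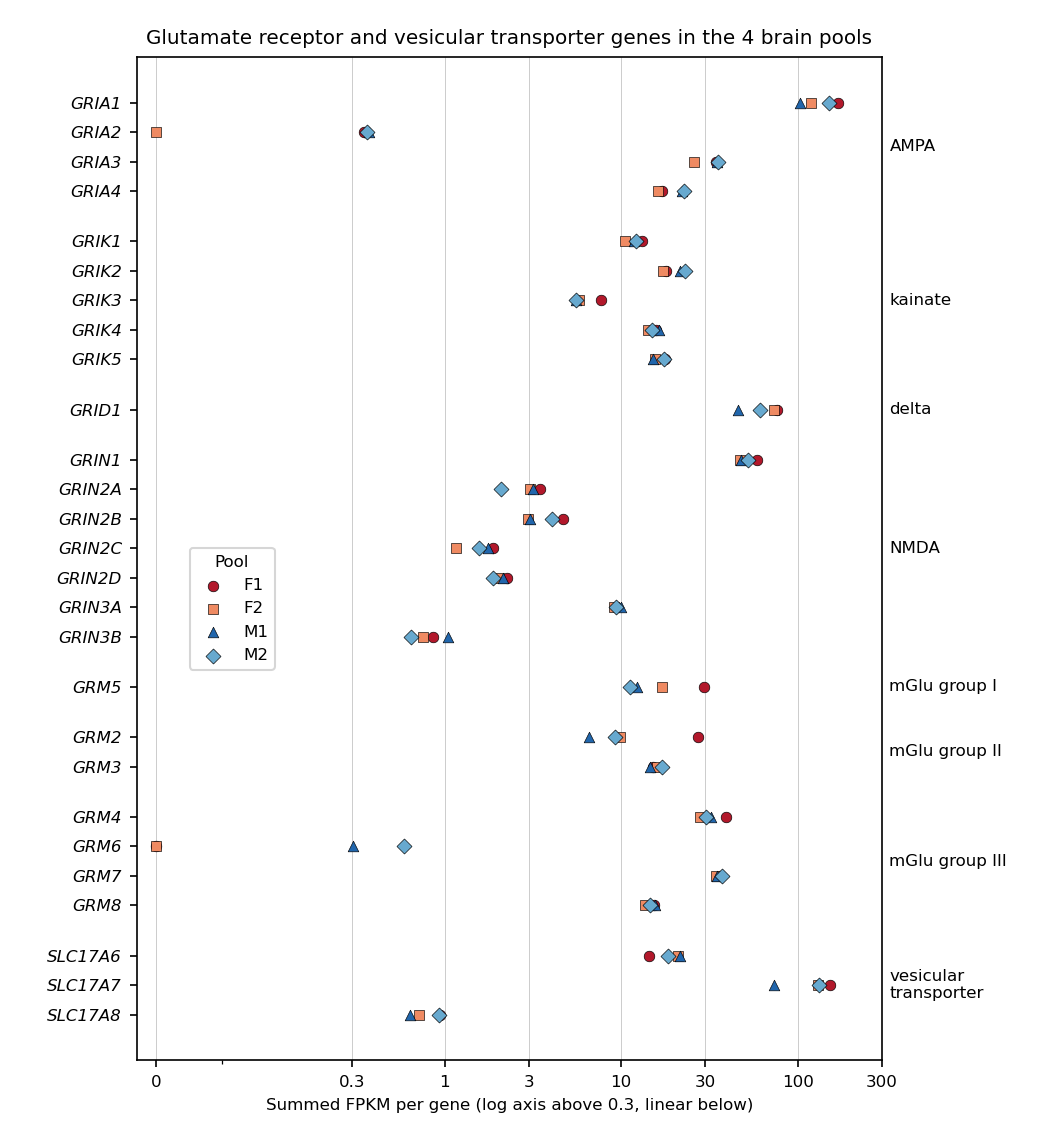
Summed FPKM of the receptor and transporter genes reported here (rows, grouped by class) in the pools F1, F2 (red and orange) and M1, M2 (dark and light blue), on an axis that is logarithmic above 0.3 FPKM. GRIA1 and SLC17A7 are at the high end in every pool, GRIA2 and GRM6 are at or near 0, and F1 lies apart to the right for GRM2 and GRM5.

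A difference between the sexes passed the threshold in 0 members. limma on log2(summed FPKM + 0.5), fitted over 12017 genes with sex as the only term, called 0 of the 26 members at an adjusted p (Benjamini-Hochberg) under 0.05, and 0 of all genes (0%). At an unadjusted p under 0.05 there were 4 members, which is 15.4% against 12.5% of all genes tested. GRM5 and GRID1 leaned to the females and GRIA4 and GRIK2 to the males, 2 in each direction, where 5.67% and 6.86% of all genes did so. Both female pools lay above both male pools for 5 members (23.6% of all genes) and both male pools above both female pools for 3 (21%). The 8 that did not overlap are 30.8% of the members, below the 44.5% of all genes. The median difference, female minus male, was 0.051 on the log2 scale for the members and 0.021 for all genes, and 23 of the 26 were within 0.5 of 0. With 2 pools a sex, exact permutation p-values stop at 0.333, so none is given.

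**Figure D2:**
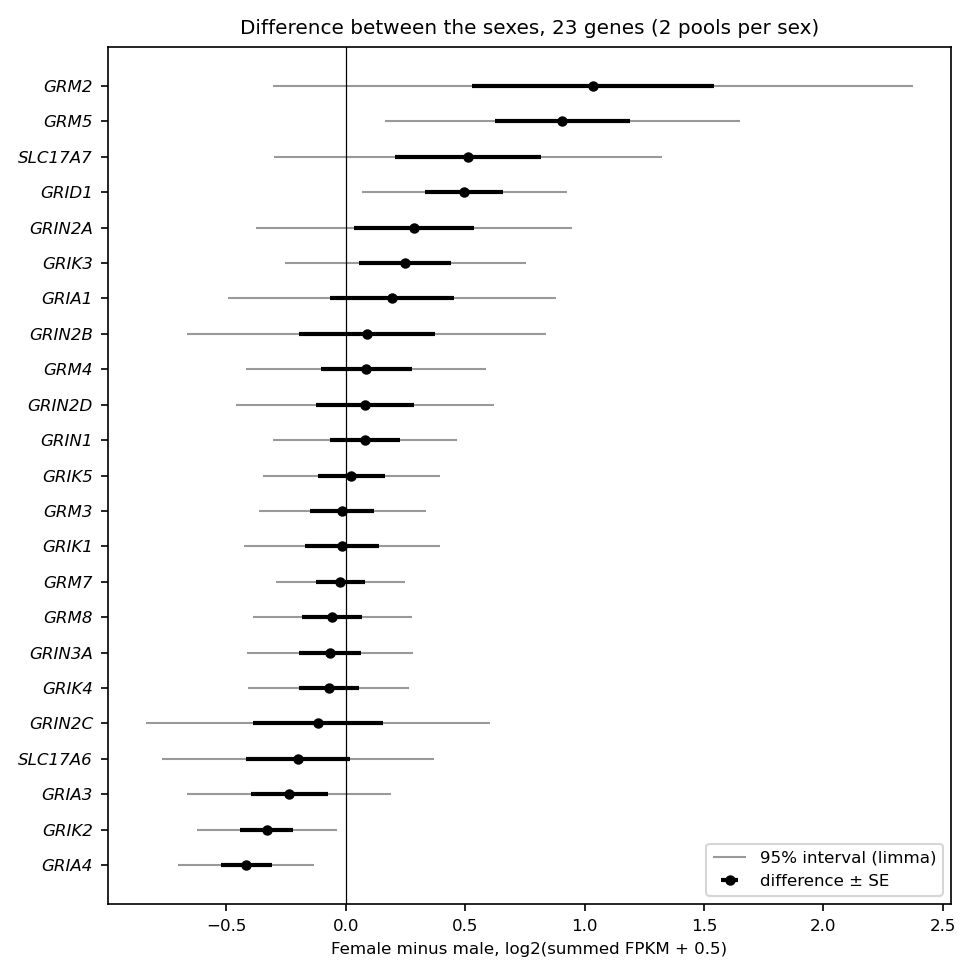
Difference between the sexes (female minus male) in log2(summed FPKM + 0.5) for 23 of the 26 genes tested, with the standard error (thick) and the 95% interval (thin) from limma. GRM2 and GRM5 are farthest on the female side and GRIA4 on the male side, and the intervals of GRM5, GRID1, GRIK2 and GRIA4 leave out 0 before adjustment.

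GRIA1 had the largest share of the AMPA sum in each pool, and GRIA2 was represented by a short fragment. GRIA1, a pore-forming AMPA subunit, stood at 169, 119, 103 and 149.5 FPKM (F1, F2, M1, M2). F1 was the highest pool and M1 the lowest, and the sexes overlapped, and limma gave 0.19 (SE 0.26, adjusted p = 0.803). GRIA3 was at 34.2, 25.97, 34.9 and 35.6 FPKM (F1, F2, M1, M2), so F2 alone was low. GRIA4, a subunit of fast auditory synapses in mammals and birds, was at 17.0 FPKM in F1 and 16.2 in F2, and at 22.0 in M1 and 22.7 in M2. Both male pools were higher and pools of one sex were close to each other. The difference of -0.42 (SE 0.11, 95% interval -0.70 to -0.13) had an unadjusted p of 0.0137 and an adjusted p of 0.2498 in limma. Within a pool, GRIA1 made up 76.6%, 73.9%, 64.3% and 71.8% of the AMPA sum (F1, F2, M1, M2), and GRIA4 7.70%, 10.1%, 13.7% and 10.9%. Counted on the longest unigene of each gene, the GRIA1 share was 60.5%, 55.4%, 45.2% and 52.5%.

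GRIA2, the subunit that keeps AMPA receptors impermeable to calcium in mammals once its RNA is edited, had a single unigene of 376 bp. It was listed at 0 for F2 and at 0.350 to 0.372 FPKM elsewhere, and its best match was a parrot (*Nestor notabilis*). No other unigene carried this symbol, so the GRIA2 values describe this fragment only. The symbols of 2 abundant AMPA unigenes rested on weak matches for their length. The shorter GRIA1 unigene matched Swiss-Prot at an E-value of 4e-50 over 3860 bp, and the GRIA3 unigene, best matched in NR by a loon (*Gavia stellata*), at 1e-37 over 4772 bp, while the longer GRIA1 and the GRIA4 unigene had an E-value of 0. AMPA subunits share much of their sequence, and which subunit such a partial match stands for is uncertain. The 2 GRIA1 unigenes shared the order of the pools, and the shorter one had 1.14, 1.28, 1.19 and 1.31 times the FPKM of the longer one in F1, F2, M1 and M2.

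Kainate receptor subunits had summed FPKM of 5.51 to 23.0 over all genes and pools. GRIK2, a channel-forming subunit, was at 18.0 FPKM in F1 and 17.2 in F2, against 21.5 in M1 and 23.0 in M2. It was higher in both male pools, by 1.27-fold in the means, with a difference of -0.33 (SE 0.11, unadjusted p = 0.0344, adjusted p = 0.355 in limma). GRIK5 and GRIK4, the high-affinity subunits that need a partner to form channels, were at 15.2 to 17.7 and 14.2 to 16.5 FPKM over all pools. GRIK1 ranged from 10.6 to 13.2 FPKM and differed by -0.02 (SE 0.15) between the sexes. GRIK3, at 7.67 FPKM in F1, was between 5.51 and 5.80 in the other pools. The share of GRIK2 in the kainate sum was 24.9% and 27.1% for F1 and F2 and 30.5% and 31.5% for M1 and M2.

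The delta receptor GRID1, a synaptic organizer, stood higher in both female pools. It was at 76.5 FPKM in F1 and 73.3 in F2, against 46.0 in M1 and 60.9 in M2. The female pools were close to each other and above both male pools, which were further apart. The female mean was 74.9 FPKM ± 2.24 (SD, n = 2), and the difference was 0.50 (SE 0.16, 95% interval 0.07 to 0.93, unadjusted p = 0.0320, adjusted p = 0.346 in limma). Without M1 the difference was 0.30, and without M2 it was 0.697.

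GRIN1, the obligatory NMDA receptor subunit, had the highest FPKM of its class, and its pools overlapped between the sexes. The values were 59.0, 47.2, 47.8 and 52.1 FPKM (F1, F2, M1, M2), a difference of 0.08 (SE 0.15, 95% interval -0.31 to 0.47). GRIN1 held 69.3% to 72.7% of the NMDA sum in the 4 pools. The glutamate-binding GRIN2 subunits, which set the kinetics of the channel, were much lower in FPKM. GRIN2B was at 4.71, 2.97, 3.03 and 4.05 FPKM in F1, F2, M1 and M2, and GRIN2A at 3.49, 3.05, 3.17 and 2.10. The ratio of GRIN2A to GRIN2B was highest in F2 and M1 (1.02 and 1.05), followed by F1 (0.741) and M2 (0.518). However, GRIN2A was summed over pieces of 13153 and 973 bp, and GRIN2B over pieces of 6774 and 790 bp. On the longest unigenes the ratio was 0.433, 0.590, 0.747 and 0.356 (F1, F2, M1, M2), below 1 in each pool. GRIN2D ranged from 1.87 to 2.24 FPKM and GRIN2C from 1.16 to 1.89.

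Among the glycine-binding GRIN3 subunits, which lower calcium flow through NMDA receptors in mammals, GRIN3A was at 9.08 to 10.04 FPKM, above each GRIN2 subunit, and GRIN3B at 0.647 to 1.05. On its longest unigene GRIN3A had a mean of 8.94 FPKM. Of the 6 tested NMDA genes 0 had an unadjusted p under 0.05, and the pools of the sexes overlapped in all 6. A second GRIN2B piece of 790 bp, with an eagle as its best match (*Haliaeetus albicilla*), had 0 FPKM for F1 and F2 but 0.228 for M1 and 0.566 for M2. It is part of the GRIN2B sums above. The longest GRIN2B unigene alone was at 4.71, 2.97, 2.80 and 3.48 FPKM (F1, F2, M1, M2). The GRIN2B difference, female minus male, was 0.087 on the sums and 0.232 on this unigene. The part of bird-matched sequence in the 790 bp piece was not tested.

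GRM5, a group I metabotropic receptor coupled to phospholipase C, was highest in F1. It stood at 29.6, 17.1, 12.2 and 11.3 FPKM (F1, F2, M1, M2). Both female pools were higher than both male pools, and the female pools were themselves 1.73-fold apart. The difference of 0.91 (SE 0.28, 95% interval 0.16 to 1.65) had an unadjusted p of 0.0265 and an adjusted p of 0.329 in limma. This difference was 0.52 without F1 and 1.295 without F2.

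Of the group II receptors, which act mostly as presynaptic brakes on glutamate release, GRM2 was high in F1 alone. Its 27.3 FPKM there compared with 9.88 in F2, 6.60 in M1 and 9.17 in M2. By means of FPKM + 0.5, GRM2 was the 1 member whose sexes were over 2-fold apart (6.16% of all genes). It was so toward females (1.93%), and 0 members were toward males (4.23%). The difference of 1.03 (SE 0.51, adjusted p = 0.486 in limma) was 0.33 without F1 and 1.74 without F2. GRM3, also found in glia in mammals, stayed between 14.5 and 16.9 FPKM. Hence GRM2 made up 64.4% of the group II sum in F1 but 31.2% to 38.3% in the other pools.

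Of the group III receptors, GRM7, GRM8 and GRM4 are also mainly presynaptic, and all 3 overlapped between the sexes. GRM7 was at 36.2, 34.4, 34.7 and 37.0 FPKM in F1, F2, M1 and M2, with a difference of -0.02 (SE 0.10, 95% interval -0.29 to 0.25). GRM8 ranged from 13.6 to 15.6 FPKM. GRM4 was at 39.3 FPKM in F1 and 27.9 to 32.2 in the others. GRM6, in mammals a receptor of retinal ON bipolar cells, had a single unigene of 397 bp that best matched a crane (*Balearica regulorum*). F1 and F2 were listed at 0, whereas M1 had 0.302 and M2 0.592 FPKM. M1 and M2 are the pools that hold most of the *Gallus*- and *Meleagris*-matched unigenes, whose part in this value was not tested.

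SLC17A7, the vesicular transporter VGLUT1, was the member with the next highest mean FPKM after GRIA1 and was low in 1 male pool. The values were 151, 130.3, 72.9 and 133 FPKM (F1, F2, M1, M2), so that M2 lay between the female pools. The difference of 0.51 (SE 0.31, adjusted p = 0.566 in limma) was 0.082 without M1 and 0.94 without M2. SLC17A6 (VGLUT2), which in mammals prevails in thalamus, midbrain and hindbrain, ordered the pools in reverse, with 14.3, 20.9, 21.6 and 18.4 FPKM (F1, F2, M1, M2). The ratio of SLC17A7 to SLC17A6 was thus highest for F1 (10.55), with M2 (7.19) and F2 (6.25) next and M1 (3.38) last, a spread of 3.12-fold in which the sexes overlapped. SLC17A8 (VGLUT3), needed by auditory hair cells in mammals and rare elsewhere, was at 0.637 to 0.945 FPKM.

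Summed by class, AMPA receptors made up the largest part of all receptor FPKM in each pool. The AMPA sum was 220.4, 161, 160.1 and 208 FPKM (F1, F2, M1, M2), or 33.4%, 31.6%, 32.8% and 37.0% of all receptors. This sum counts GRIA1 in 2 unigenes. With the longest GRIA1 unigene alone, AMPA stayed the largest receptor class but fell below the vesicular transporters in F1, F2 and M2. The kainate sums were 72.3 and 63.3 FPKM for F1 and F2 against 70.5 and 73.2 for M1 and M2, the NMDA sums 81.5 and 66.2 against 69.0 and 71.6, the group II sums 42.4 and 25.8 against 21.1 and 26.1, and the group III sums 90.8 and 75.9 against 82.7 and 82.3. The pools of the sexes overlapped in each of these classes. All receptors together came to 586 FPKM ± 106 (SD, n = 2) in females and 525 ± 53.4 in males. Class sums were not tested.

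**Figure D3:**
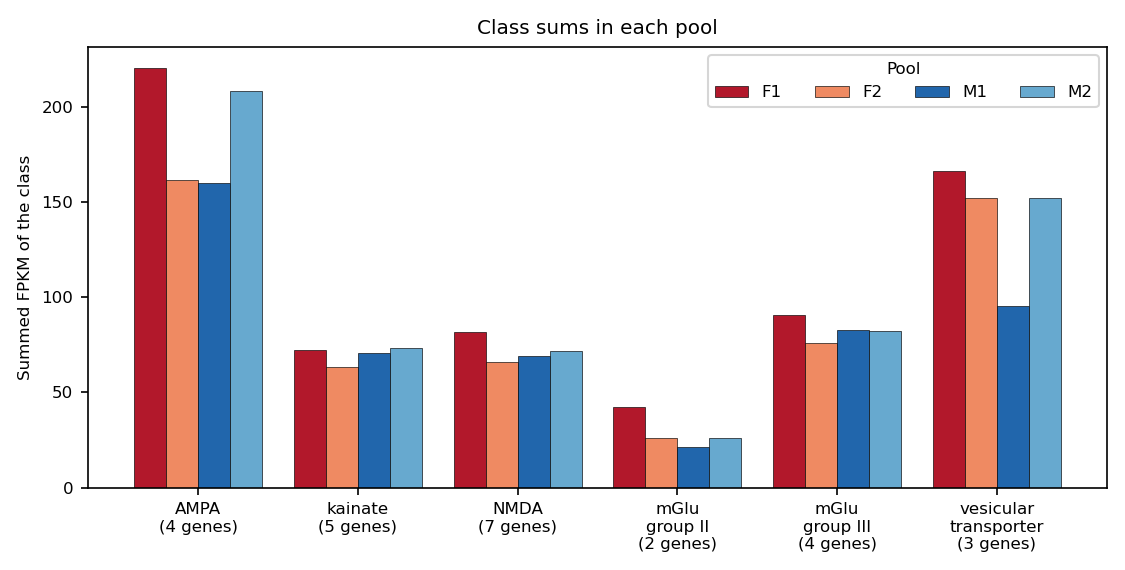
Summed FPKM of 5 receptor classes and of the vesicular transporters in F1, F2, M1 and M2 (bars, 1 pool each). The AMPA bars, in which GRIA1 is counted with 2 unigenes, are the tallest in each pool. F1 is the highest pool for mGlu group II, and M1 is the lowest for the transporters at 95.2 FPKM.

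**Figure D4:**
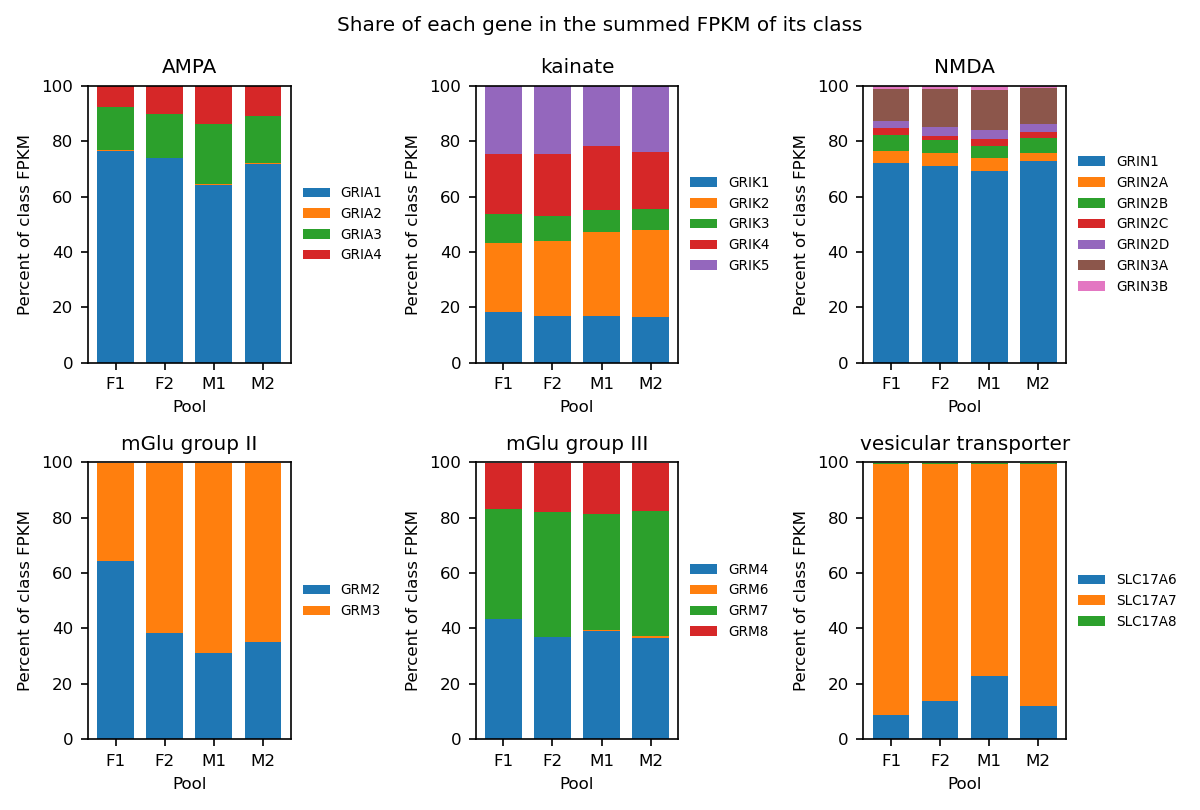
Share of each gene in the summed FPKM of its class, in percent, for 6 classes and the 4 pools. GRIN1 holds most of the NMDA sum in every pool, GRIA1 holds 64.3% to 76.6% of the AMPA sum with its 2 unigenes added (45.2% to 60.5% on the longest), GRM2 takes 64.4% of group II in F1, and SLC17A6 takes 22.7% of the transporter sum in M1 against 8.61% in F1.

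F1 stood above F2 in most members. Of the 26 tested members, 24 were higher in F1 than in F2, against 48.1% of all genes. F1 was the highest of the 4 pools for 17 members (28.9% of all genes) and F2 the lowest for 13 (21.8%), while M1 was the lowest for 8 (23.8%). GRM3 and SLC17A6 were the 2 tested members that were lower in F1 than in F2. Transcript length moved with this order. F1 exceeded F2 for 30% of genes whose longest unigene was under 1000 bp, for 56.9% of those with at least 2500 bp, and for 62.9% of those with at least 2500 bp and a mean of at least 5 FPKM. Among the 22 members of that last kind it was 20. F1 and F2 also differed in the neuron list sum (2412 and 1939 FPKM), and F2 held more pituitary and muscle signal. The parts of transcript length and of tissue content in this order were not tested. These pools are single libraries, and the comparison of F1 with F2 has no replicates and no test.

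M1 was the lowest pool for some telencephalic genes and the highest for hindbrain genes. NEUROD6, a transcription factor of pallial excitatory neurons, stood at 119, 82.2, 50.04 and 109 FPKM (F1, F2, M1, M2), and its relative NEUROD2 at 27.7, 25.1, 18.9 and 32.3. EMX1, a pallial homeobox gene named after its values were seen, was at 10.5, 7.75, 3.29 and 11.7 FPKM in the same order. M1 was thus the lowest pool for these 3, as for SLC17A7 and GRIA1, and for 4 of the 7 telencephalon genes in the table (summed FPKM of 187, 141, 99.0 and 187). Most of each of these sums was NEUROD6. M1 was not the lowest pool for EMX2, at 10.1 to 12.0 FPKM, nor for LHX2, also named after its values were seen, at 9.25 to 12.6. The 10 hindbrain genes in the table were each highest in M1, with a summed FPKM of 19.0 there against 2.17 (F1), 4.87 (F2) and 6.01 (M2). Of these, the patterning gene HOXB2 was at 2.20 FPKM in M1 and at 0.548 to 0.748 in the other pools. The cerebellum list (5 of 11 genes in the table) summed to 79.0, 100.4, 91.2 and 72.7 FPKM, so it was not lowest in M1. Most of each of these sums was CBLN1, at 62.8, 72.5, 69.4 and 54.6 FPKM (F1, F2, M1, M2). Among the 26 tested members, M1 was the lowest pool for 8 (30.8%, against 23.8% of all genes). The part of brain region in the values of SLC17A7, GRIA1 and the other members was not tested.

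**Figure D5:**
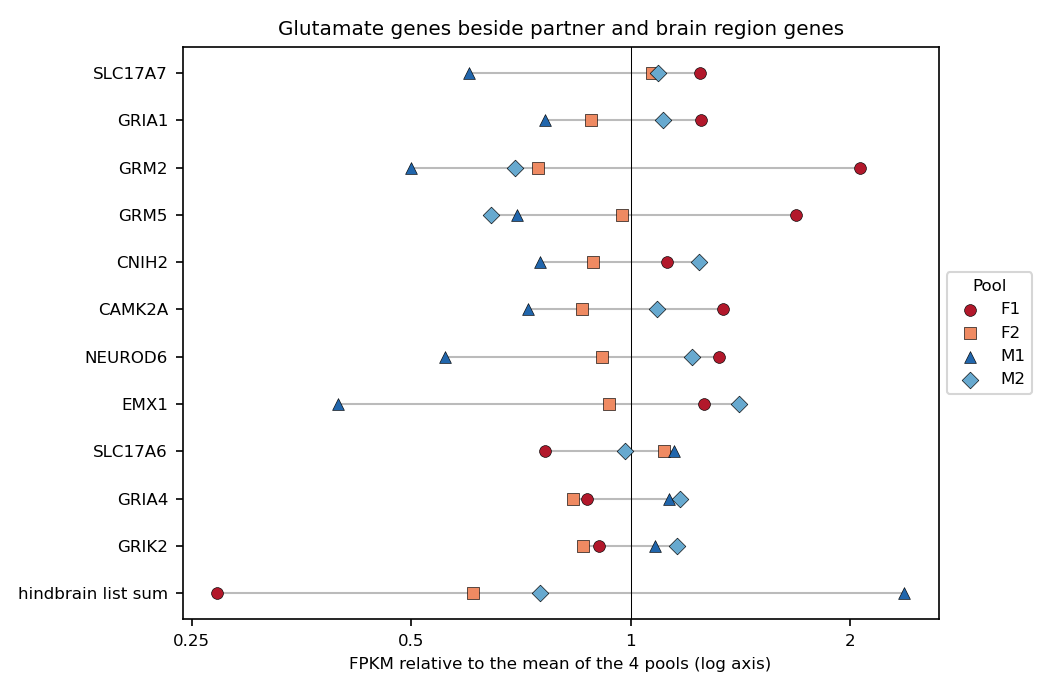
FPKM in each pool relative to the mean of the 4 pools (log axis) for 7 members, the partners CNIH2 and CAMK2A, the telencephalic NEUROD6 and EMX1, and the sum of the hindbrain list. The members and EMX1 were chosen after their values were seen. The same lists hold genes in which M1 was not the lowest pool and which are not shown, among them EMX2, LHX2, SYNDIG1 and CAMK2D. M1 is lowest for SLC17A7, GRIA1, GRM2, CNIH2, CAMK2A, NEUROD6 and EMX1 and highest for SLC17A6 and the hindbrain sum, and F1 stands out for GRM2 and GRM5.

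Proteins that work with the receptors also gave no calls. Over the 4 partner lists, limma called 0 of 51 tested genes at an adjusted p under 0.05. Of the 15 tested auxiliary subunits of AMPA and kainate receptors, which steer trafficking and gating, 1 had an unadjusted p under 0.05 on the female side (6.67%, against 5.67% of all genes) and 0 on the male side (6.86% of all genes), and the median difference was 0.044. CNIH2, a cornichon that slows AMPA receptor closing, stood at 73.1, 57.8, 49.0 and 81.0 FPKM (F1, F2, M1, M2). SYNDIG1, at 40.1, 53.4, 50.7 and 41.1 FPKM, and FRRS1L, at 47.5, 36.2, 36.0 and 43.0, did not separate the sexes. SHISA9, an AMPA auxiliary named after its values were seen, was the gene on the female side, at 4.03 and 3.72 FPKM for F1 and F2 and 2.31 and 2.44 for M1 and M2. In limma its difference was 0.61 (SE 0.18, adjusted p = 0.317).

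Postsynaptic scaffolds were mostly highest in F1. Of 19 scaffold genes, F1 was the highest pool for 15 (78.9%, against 28.9% of all genes) and M1 the lowest for 11 (57.9% against 23.8%). Both female pools lay above both male pools for 9 (47.4% against 23.6%). Their median difference was 0.25, with 0 genes at an unadjusted p under 0.05. The shares over all genes include short ones, in which F1 exceeded F2 less often, and the part of transcript length was not tested. DLG4 (PSD-95), the core scaffold of excitatory synapses, stood at 102, 79.5, 75.03 and 83.9 FPKM (F1, F2, M1, M2). DLG2 was at 33.5, 23.8, 19.4 and 23.1 FPKM, and DLG1 at 24.2, 24.0, 20.7 and 22.7.

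The 12 signalling partners of the metabotropic receptors and of calcium entry had a median difference of 0.25, also with 0 genes at an unadjusted p under 0.05. F1 was the highest pool for 10 of them (83.3%, against 28.9% of all genes, short ones included). Here too the part of transcript length was not tested. CAMK2A, the calcium-dependent kinase of the postsynapse, stood at 103, 66.2, 55.9 and 83.95 FPKM (F1, F2, M1, M2). CAMK2D was at 149.7, 105, 116 and 127 FPKM, and CAMK2B at 134, 111, 80.4 and 129.

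The 5 delta receptor ligands in the table, cerebellins and neurexins, had a median difference of -0.17, with 1 gene of the 5, CBLN4, at an unadjusted p under 0.05 on the male side, as for 6.86% of all genes. CBLN4, named after its values were seen, was at 14.2 and 15.6 FPKM for F1 and F2 and 20.3 and 19.1 for M1 and M2. In limma its difference was -0.39 (SE 0.12, adjusted p = 0.317). CBLN1 was at 62.8, 72.5, 69.4 and 54.6 FPKM in F1, F2, M1 and M2. NRXN2, at 65.2, 56.2, 68.3 and 82.2 FPKM in the same order, was higher in both male pools. Its difference was -0.31 (SE 0.14, adjusted p = 0.473 in limma).

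Cell type lists gave the setting of these values. The neuron list summed to 2412, 1939, 2230 and 2319 FPKM (F1, F2, M1, M2), lowest in F2. The list of GABA neuron genes summed to 706, 609, 701 and 715 FPKM, with SLC32A1, the vesicular transporter of GABA, at 115, 93.5, 114 and 108. The astroglia list summed to 1531, 1494, 1020 and 1142 FPKM. Most of this was GLUL, glutamine synthetase, at 1005, 982, 556 and 619, and without it the list summed to 526, 513, 464 and 524. SLC1A3, a glial glutamate uptake carrier, was higher in both female pools (240, 217, 180 and 197). FABP7, a radial glia protein, was highest in M2 and nearly equal in F2 and M1 (217, 224, 225 and 266), and AQP4 was at 1.77 FPKM or less. The oligodendrocyte list (7 of 9 symbols) summed to 996, 904, 1262 and 969 FPKM, with MBP, a myelin protein, at 905, 811, 1152 and 856.5. Muscle genes (9 of 10 symbols) summed to 4.42, 424, 9.95 and 26.1 FPKM, red blood cell genes (5 of 9) to 279, 217, 66.1 and 23.0, and photoreceptor genes (4 of 10) to 6.40, 20.5, 7.31 and 4.72. The red blood cell sum of F1 and F2 was mostly HBB, a globin, at 256, 131, 1.18 and 2.19, and without it the list summed to 22.95, 85.6, 64.95 and 20.8. The part of these cells in the receptor values was not tested.

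A receptor outside the rule had FPKM in the range of the leading members. The unigene comp220677_c2_seq2 of 2763 bp matched the kainate-binding protein of the frog *Rana berlandieri*, a glutamate-binding membrane protein known from frog and bird brains, whose Swiss-Prot entry carries no gene symbol. This unigene, chosen after its values were seen, stood at 70.1, 52.6, 37.1 and 83.1 FPKM (F1, F2, M1, M2). It thus exceeded each kainate subunit in FPKM, and M1 was again the lowest pool. In the limma fit over single unigenes its difference was 0.13 (SE 0.44, adjusted p = 0.949). A short unigene of 471 bp, weakly matched to an NMDA 1-like protein of a fish (*Oryzias latipes*, E-value 1e-10) and also chosen after its values were seen, was at 2.999 and 3.12 FPKM for F1 and F2 against 1.54 and 0.919 for M1 and M2. Its difference in the same fit was 1.07 (SE 0.30, adjusted p = 0.3075), with an unadjusted p under 0.05, as for 12.1% of the unigenes tested.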

How the data were processed

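Polyadenylated RNA of 4 pooled brain libraries (2 per sex) was measured. FPKM values were deposited by the authors. Their methods describe NGS QC Toolkit, Trinity, TGICL and Bowtie2, whereas the labels list cutadapt, FastQC, Salmon and edgeR, and which of these made the values was not settled. Unigene length, in bp, is another deposited column. FPKM were summed per Swiss-Prot gene symbol, in any case, after 4901 unigenes with *Gallus* or *Meleagris* in the NR match were dropped. Genes of at least 1 FPKM in at least 2 pools were kept, 0.5 was added, and log2 values were fitted with limma 3.58.1 in R 4.3.3 (trend, sex as the only term, 2 residual and 2.57 prior degrees of freedom). Python 3.11.15, pandas 2.3.3, numpy 2.4.6, scipy 1.17.1 and matplotlib 3.10.9 made tables and figures. Members above 0 were named, except some genes whose values, with those of their class sums, are not reported here, and at most the 3 genes of highest mean FPKM of the other lists, besides defining markers near 0. The members and lists were chosen with earlier results of these data known. The p-values rest on the spread between pools of the same sex, with 1 variance for both sexes that draws partly on other genes. Among the tested members the median absolute log2 difference was 0.294 between F1 and F2 and 0.13 between M1 and M2. No sequences of the unigenes were used here.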

Additional observations from a re-analysis of the deposited data

How the results depend on the processing

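Under 20 alternatives the number of members past the threshold was 0 in each, also with the replicate number as a block, and so was the number of partner genes. In 18 of 452 values of the single members reported the sign changed, and 0 passed the threshold. GRIK5 was -0.013 with quantile normalization. Leaving out 1 pool at a time gave ranges across 0 for GRIA1 (-0.076 to 0.461), GRIK5 (-0.079 to 0.125), GRIN1 (-0.08 to 0.239), GRIN2B (-0.205 to 0.38), GRM3 (-0.122 to 0.091), GRM4 (-0.157 to 0.33), SLC17A6 (-0.463 to 0.063), GRIK1 (-0.169 to 0.136), GRIN2C (-0.377 to 0.145), GRM7 (-0.069 to 0.024) and GRM8 (-0.135 to 0.022). With 1 pool left out, the lone pool of a sex was taken to vary like the others. Class ratios on the log2 scale then ranged from -0.19 to 0.259 for AMPA, -0.183 to 0.009 for kainate, -0.086 to 0.214 for NMDA, 0.128 to 0.843 for group II, -0.12 to 0.137 for group III and 0.067 to 0.743 for the transporters. Group II was 1.236 with amphibian-matched unigenes alone, which drops GRM3. Members at an unadjusted p under 0.05 in limma numbered 4, but 5 of 30 without the filter, 2 without a trend and 2 with the block. This number also changed with a pool left out. The numbers of the labels mark no shared frogs, and same-numbered pools tended to deviate in opposite directions (r = -0.253 across genes, which are not independent). A block with crossed numbers, chosen after seeing the data, gave 7 members at an unadjusted p under 0.05 and 40 calls among all genes. Calls over the whole table, 0 in the reported fit, were 315 with 0.1 added, 26 with median ratios, 298 without a trend, 28 with a robust prior, 76 on the longest unigene, 55 on the length-weighted mean, 393 with bird-matched unigenes kept and 0 to 2 with a pool left out. The cause was not tested. Without read counts per unigene no counting error could be given.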
